A study of Mus musculus with 16 samples.

Results

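S100 proteins are small calcium-binding proteins, and 9 of their genes were followed here in all 16 libraries of a mouse periodontal ligament RNA sequencing study: S100a1, S100a4, S100a6, S100a8, S100a9, S100a10, S100a11, S100a13 and S100a16. They were picked by symbol, with expression results from the same libraries already known and no stated threshold, out of 55359 genes in the count table. All 9 had enough reads to be tested, among 20953 genes tested in all. The libraries came from wild-type male C57BL/6J mice aged 9 weeks, in 4 groups with n = 4 each. Control mice had no treatment. Ligature mice had silk thread tied around the upper left second molar, which brings on periodontitis. Trauma mice had composite resin built onto the biting surface of the same tooth, which overloads it (traumatic occlusion). Mice of the last group, ligature plus trauma, had both. The labels name no sham operation, no time between treatment and sampling, and no link between a library and a single animal, so the p-values speak only of how far these libraries scatter, some of which may be technical. The labels give the tissue as periodontal ligament, while the series title speaks of bone. Summed markers of ligament fibroblasts reached 37080 to 90670 CPM and those of osteoblasts 5887 to 12150 CPM over the 16 libraries. CPM is a gene's count relative to the scaled library total, in the usual CPM units.

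A typical S100 protein carries a pair of EF-hand calcium-binding loops and works as a dimer. It changes shape on binding calcium so that it can hold a partner protein, though not every member does so. S100A8 and S100A9 join into calprotectin, which fills the cytosol of neutrophils, is also made by monocytes and by stressed stratified epithelium, and once released withholds zinc and manganese from microbes and acts on receptors such as TLR4. The others act mostly inside cells: S100A10 and S100A11 hold annexins, S100A4 holds non-muscle myosin, and S100A6 holds calcyclin-binding protein. Calprotectin in gingival fluid is a long-known marker of periodontal inflammation.

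The genes lie in one cluster on chromosome 3, in the order S100a1, S100a13, S100a16, S100a4, S100a6, S100a8, S100a9, S100a11 and S100a10 among the 9 (RefSeq, GRCm38.p6). The stretches of 250 bases that end just before the annotated start are shown for S100a8 and S100a9, whose levels moved together, and for S100a4, which passed the test in every comparison of a ligature group with a group without a ligature. RefSeq promoter entries (GRCm38.p6) were found for 8 of the 9 genes. Letters in capitals are matches to a C/EBP motif (TTNNGNAA), a PU.1 motif (GAGGAAGT) or a TATA box (TATAAA). An AP-1 motif was also searched, written with N for any base as TGANTCA. All were searched on both strands, and each sequence reads 5′ to 3′ along its gene.
S100a8, chr3:90668821-90669070, plus strand: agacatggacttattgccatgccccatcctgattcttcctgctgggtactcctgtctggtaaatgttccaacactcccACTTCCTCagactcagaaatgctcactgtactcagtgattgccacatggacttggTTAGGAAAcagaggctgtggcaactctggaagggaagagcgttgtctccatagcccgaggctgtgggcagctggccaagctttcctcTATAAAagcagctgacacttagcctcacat
S100a9, chr3:90695722-90695971, minus strand: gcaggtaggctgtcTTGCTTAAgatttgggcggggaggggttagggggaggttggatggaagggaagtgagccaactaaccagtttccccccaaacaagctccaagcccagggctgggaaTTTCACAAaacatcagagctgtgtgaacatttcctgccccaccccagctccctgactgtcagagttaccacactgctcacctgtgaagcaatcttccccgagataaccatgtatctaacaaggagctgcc
S100a4, chr3:90603520-90603769, plus strand: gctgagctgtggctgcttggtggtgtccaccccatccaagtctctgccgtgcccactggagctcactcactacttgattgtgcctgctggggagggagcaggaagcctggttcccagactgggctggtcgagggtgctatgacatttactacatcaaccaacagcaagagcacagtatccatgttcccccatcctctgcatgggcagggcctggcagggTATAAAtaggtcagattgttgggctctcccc

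The S100a8 sequence held 1 C/EBP match, at bases -117 to -110 from the start, and 1 PU.1 match on the opposite strand, at -172 to -165. The S100a9 sequence held C/EBP matches on the opposite strand at -236 to -229 and at -130 to -123. A TATA box match stood at -30 to -25 in S100a8 and at -31 to -26 in S100a4. No match to the AP-1 letters was in any of the 3 windows. Of 32851 promoters of the same length, 36.8% held the C/EBP letters, 2.44% the PU.1 letters, 6.75% the AP-1 letters and 12.4% the TATA box letters, so the C/EBP letters are common. A match describes the letters and does not show that a factor binds there.

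Some libraries, 3 of the 16, stood apart before any comparison and bear on all the values that follow. Ranked over the tested genes, expression and transcript length correlated at 0.068 in ligature 2 and at 0.11 and 0.107 in libraries 2 and 3 of ligature plus trauma, against 0.175 to 0.304 in the other 13 libraries. These 3 are called short-transcript libraries here. The members' transcripts are short, with median lengths from 486 bases (S100a8) to 902.5 bases (S100a16). In both groups concerned, every one of the 9 genes read higher in these libraries than in the others of its group. Differences from control in the 9 genes are therefore given with all 16 libraries and, for the groups with a ligature, with these 3 left out as well (13 libraries, with 3 left for ligature and 2 for ligature plus trauma). Total counts were 58458102 to 77468584 per library. Of all counts the 9 genes held 0.13 to 0.222% in controls, 0.227 to 0.691% under a ligature, 0.246 to 0.786% under trauma and 0.281 to 0.758% under both.

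**Figure D1:**
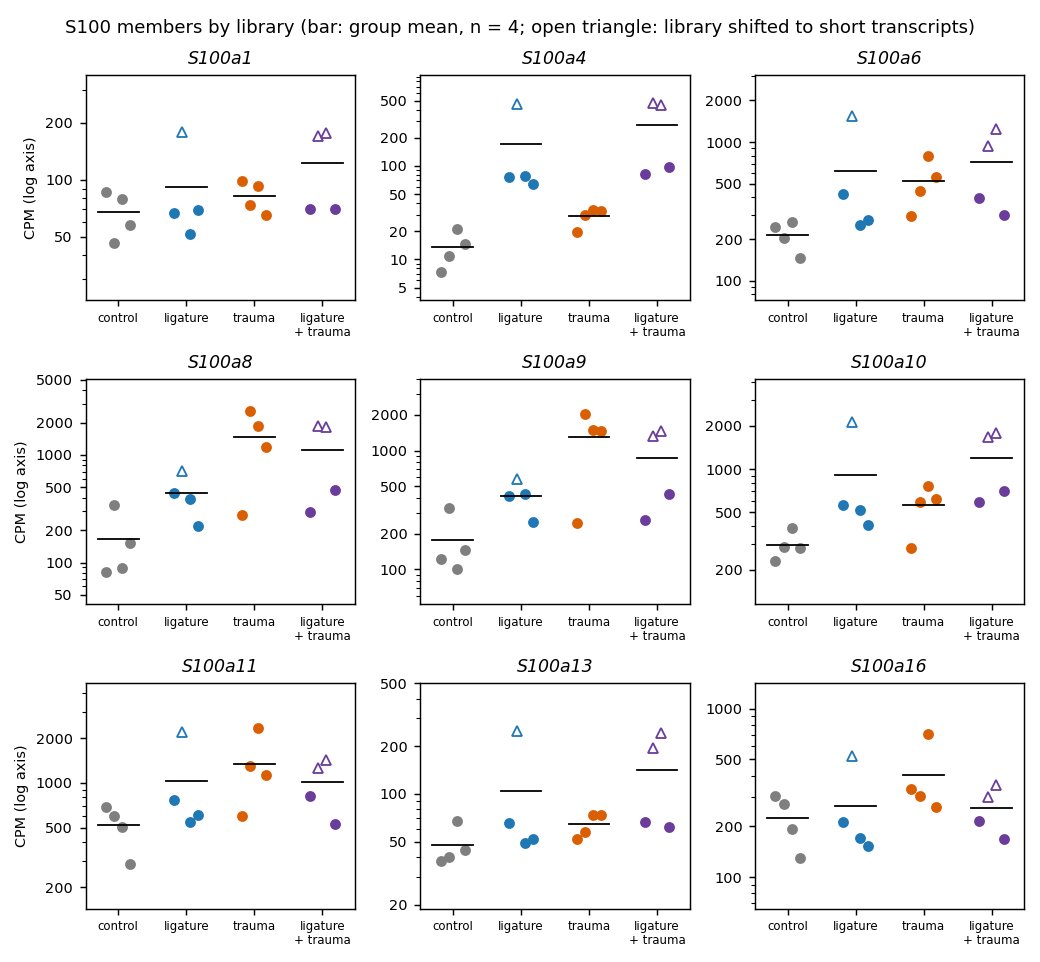
CPM (log axis) of the 9 S100 genes in each of the 16 libraries, with bars for group means (n = 4) and open triangles for the 3 short-transcript libraries. The triangles lie above the other libraries of their group in all 9 panels, S100a4 lies higher in every library with a ligature than in every library without one, and S100a8 and S100a9 reach their highest values in trauma 2.

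S100a8 and S100a9, the calprotectin subunits, were highest in 3 of the 4 trauma libraries and in 2 of the 4 ligature plus trauma libraries. S100a8 stood at 81.8, 343, 89.5 and 153 CPM in controls 1 to 4. It stood at 444, 710, 389 and 217 CPM in ligature 1 to 4, and at 276, 2557, 1878 and 1177 CPM in trauma 1 to 4. In ligature plus trauma 1 to 4 it stood at 297, 1841, 1808 and 470 CPM. Control 2 was the highest control, and each treated group had a library below it, so all 3 treated groups overlapped the controls. The group means were 167 ± 122 CPM in control, 440 ± 204 in ligature, 1472 ± 976 in trauma and 1104 ± 835 in ligature plus trauma (SD, n = 4).

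S100a9 followed the same order of libraries closely. It stood at 123, 331, 102 and 146 CPM in controls 1 to 4 and at 413, 579, 431 and 249 CPM in ligature 1 to 4. In trauma 1 to 4 it stood at 246, 2018, 1496 and 1455 CPM, and in ligature plus trauma 1 to 4 at 261, 1322, 1475 and 428 CPM. Trauma 1 lay far below the other trauma libraries for both subunits. The count of S100a8 relative to that of S100a9 stayed between 0.665 and 1.39 in all 16 libraries, while either gene alone varied far more. The mean log2 ratio was -0.16 ± 0.31 in control, 0.01 ± 0.23 in ligature, 0.13 ± 0.30 in trauma and 0.27 ± 0.15 in ligature plus trauma (SD, n = 4). The ratio itself was 0.665 to 1.05 in control and 1.10 to 1.39 in ligature plus trauma, ranges that did not meet, and ligature and trauma lay across both. This difference was not tested.

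With both treatments the subunits rose against control: S100a8 by a log2 fold change of 2.73 ± 0.71 (SE; adjusted p = 0.023) and S100a9 by 2.31 ± 0.62 (adjusted p = 0.0262). All adjusted p-values of genes here are from edgeR's quasi-likelihood test with Benjamini-Hochberg adjustment over all genes tested, and a gene passed below 0.05. Without the 3 short-transcript libraries the log2 fold changes were 1.20 ± 0.69 (edgeR adjusted p = 0.375) and 0.97 ± 0.62 (edgeR adjusted p = 0.427), and neither passed. Single libraries decided the calls too. Without control 1, control 3, control 4, ligature plus trauma 2 or ligature plus trauma 3, the edgeR adjusted p of S100a8 was 0.0705, 0.0574, 0.059, 0.0752 and 0.079. Without the same libraries that of S100a9 was 0.078, 0.0638, 0.068, 0.0821 and 0.0957.

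Trauma alone gave the widest differences of the pair and no call. S100a8 differed from control by 3.14 ± 0.73 on the log2 scale (95% interval 1.60 to 4.68, edgeR adjusted p = 0.366) and S100a9 by 2.89 ± 0.64 (1.54 to 4.24, edgeR adjusted p = 0.366). DESeq2 called both, at 3.16 (DESeq2 adjusted p = 0.000635) and 2.91 (DESeq2 adjusted p = 0.000453). In that DESeq2 comparison 0.546% of genes passed, against 0.00477% with edgeR. With 13 libraries the differences were again 3.14 and 2.89 (edgeR adjusted p = 0.124 for both), since no control or trauma library was among those left out. Ligature alone gave 1.40 ± 0.68 for S100a8 (edgeR adjusted p = 0.199) and 1.25 ± 0.60 for S100a9 (edgeR adjusted p = 0.194). With 13 libraries these were 1.05 ± 0.62 and 1.04 ± 0.56 (edgeR adjusted p = 0.333 and 0.281).

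Adding trauma to the ligature gave differences of 1.33 ± 0.68 for S100a8 (95% interval -0.11 to 2.77) and 1.06 ± 0.60 for S100a9 (-0.21 to 2.33), neither passing (edgeR adjusted p = 1). With 13 libraries these were 0.15 and -0.07. Against trauma alone, ligature plus trauma gave -0.41 ± 0.67 for S100a8 (edgeR adjusted p = 0.808) and -0.58 ± 0.60 for S100a9 (edgeR adjusted p = 0.665). With 13 libraries the same comparison gave -1.94 ± 0.78 (edgeR adjusted p = 0.263) and -1.92 ± 0.70 (edgeR adjusted p = 0.207). The interaction, the effect of trauma with a ligature minus its effect without one, was -1.81 ± 0.95 for S100a8 and -1.83 ± 0.85 for S100a9 and did not pass (edgeR adjusted p = 0.9999 for both). With 13 libraries it was -3.00 ± 0.997 (95% interval -5.15 to -0.84) and -2.96 ± 0.89 (-4.89 to -1.03), again without passing (edgeR adjusted p = 0.819 for both).

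Marker genes of other cells moved beside the calprotectin genes. In bulk tissue, a change in the number of cells of a type and a change in RNA per cell cannot be told apart. The summed level of 10 mature neutrophil markers was 119 to 596 CPM in controls, 194 to 349 under a ligature, 289 to 1851 under trauma and 157 to 660 under both. Trauma 1 to 4 summed to 289, 1851, 739 and 1228 CPM, while their mean log2 CPM over the same 10 genes was 3.05, 2.85, 2.93 and 3.51. Trauma 2, highest for S100a8, was thus highest by the sum and lowest by the mean log2 value of its group. In every group library 2 was highest for both S100a8 and the sum, and in trauma library 1 was lowest for both. Ligature 2 and ligature plus trauma 2 are short-transcript libraries. Among controls S100a8 was lowest in control 1 and the sum in control 3. Under a ligature S100a8 was lowest in library 4 and the sum in library 3, and under both treatments S100a8 was lowest in library 1 and the sum in library 4. Ltf and Lcn2, the most abundant genes of that list, are also made by epithelium. Ly6g, a defining neutrophil surface gene, averaged 0.686 CPM and was at 0 in 3 libraries. Camp, Ngp and Padi4 were each at 0 in 1.

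Within that list 3 genes rose and 1 fell with ligature, and 4 rose and 1 fell with both treatments. Of all genes tested 10.7% and 12.5% passed in these comparisons. With trauma alone 0 of 10 passed by edgeR, 4 had an unadjusted p under 0.05 and DESeq2 called 3 (0.546% of all genes). With 13 libraries 3 rose and 1 fell with ligature (7.99% of all genes passed), and 1 rose with both (3.26%). Retnlg, Cxcr2 and Csf3r rose in both comparisons (Cxcr2, the neutrophil chemokine receptor, by 2.31 and 2.80 on the log2 scale, edgeR adjusted p = 0.0206 and 0.00876). Ltf, which encodes lactoferrin, fell by 3.77 with ligature (edgeR adjusted p = 0.0126). The mean log2 CPM of the 10 genes lay below that of S100a8 by 4.94 ± 0.84 in control, 5.70 ± 0.81 in ligature, 7.04 ± 1.52 in trauma and 6.51 ± 1.26 in ligature plus trauma (SD, n = 4). Summed oral epithelium markers were 1566 to 13910 CPM in controls, 1679 to 2685 under a ligature, 4844 to 33690 under trauma and 880 to 3194 under both, led by Krt14 and Krt6a. Of 11 epithelial genes, 8 fell with ligature and 10 with both treatments. With trauma 0 passed by edgeR or DESeq2, and 0 had an unadjusted p under 0.05. With 13 libraries 5 fell with ligature. With both, 0 fell by edgeR, where 9 had an unadjusted p under 0.05 and the median log2 difference was -4.41. Which cells gave the S100a8 and S100a9 reads was not tested.

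**Figure D2:**
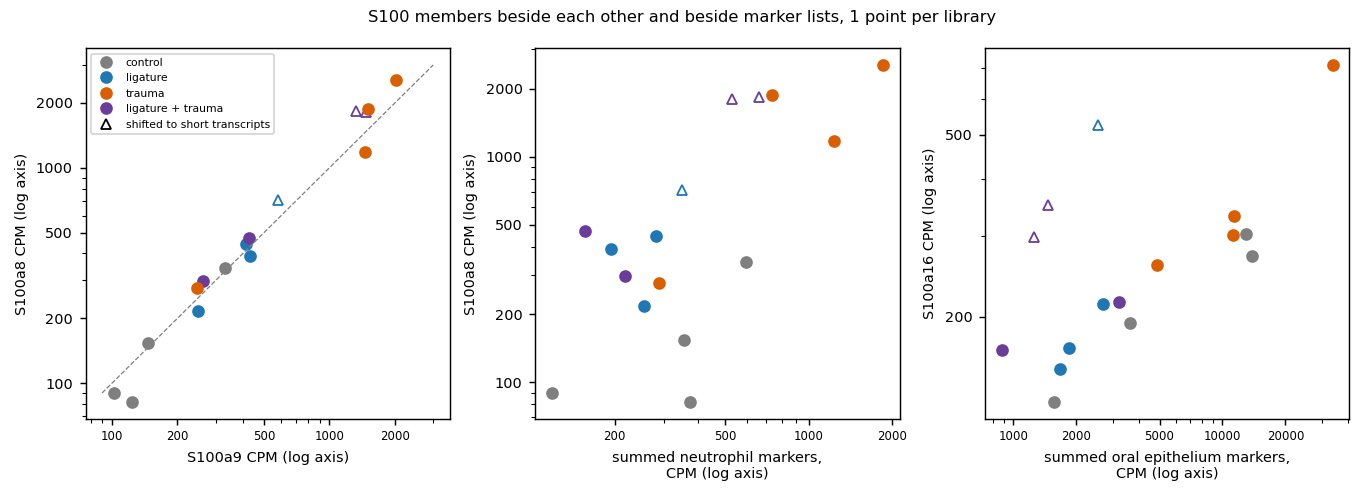
Left, S100a8 against S100a9 CPM with the line of equal values. Middle, S100a8 CPM against the summed CPM of 10 neutrophil markers. Right, S100a16 CPM against the summed CPM of 11 oral epithelium markers. Each point is 1 of 16 libraries, all axes are log axes and open triangles mark the 3 short-transcript libraries. Points keep near the line at left, from 81.8 CPM of S100a8 in control 1 to 2557 in trauma 2, and trauma 3 is highest in both measures at right (33690 and 712 CPM).

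S100a4, also called fibroblast-specific protein and present in macrophages as well, was the member that told ligature from no ligature. It stood at 7.33, 10.9, 21.0 and 14.6 CPM in controls 1 to 4 and at 19.6, 30.0, 33.6 and 32.6 CPM in trauma 1 to 4. In ligature 1 to 4 it stood at 75.3, 461, 77.7 and 63.2 CPM, and in ligature plus trauma 1 to 4 at 81.6, 474, 451 and 98.0 CPM. All 8 libraries with a ligature lay above all 8 without one, and the 3 short-transcript libraries lay far above the rest. Of all genes tested, 9.97% lay wholly above control with ligature and 10.8% with both treatments. With both, 5.74% lay wholly above trauma. Summed markers of osteoclasts, 6 genes, also split the libraries by ligature, at 9798 to 14580 CPM with a ligature and 1077 to 3998 CPM without. The sum of 10 monocyte and macrophage markers was 2405 to 3619 CPM under a ligature and 2556 to 3550 under both, against 1521 to 2334 in control and 1288 to 2713 in trauma. Lyz2 led that list at a mean of 1598 CPM. With 13 libraries 2 of its 10 genes rose and 1 fell with ligature (edgeR, 7.99% of all genes passed). With both treatments 1 rose and 1 fell (3.26%). The median log2 differences of the list were -0.18 and -0.46. The part of these cells in the S100a4 level was not tested. S100a4 rose with ligature by 3.65 ± 0.73 (SE; edgeR adjusted p = 0.00506) and with both treatments by 4.36 ± 0.75 (edgeR adjusted p = 0.00251) against control. Against trauma alone, ligature plus trauma was higher by 3.26 ± 0.71 (edgeR adjusted p = 0.0153).

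With 13 libraries S100a4 was the one member that passed, and its differences were smaller. The group means were then 13.5 ± 5.85 CPM in control (n = 4), 72.1 ± 7.74 in ligature (n = 3), 28.9 ± 6.42 in trauma (n = 4) and 89.8 ± 11.7 in ligature plus trauma (n = 2). The log2 fold change was 2.40 ± 0.30 for ligature against control (edgeR adjusted p = 0.000857), 2.73 ± 0.33 for ligature plus trauma against control (edgeR adjusted p = 0.00332) and 1.63 ± 0.32 against trauma (edgeR adjusted p = 0.0297). Leaving out ligature 2 alone gave 2.40 for ligature against control (edgeR adjusted p = 0.0133). Trauma alone gave 1.10 ± 0.66 against control (95% interval -0.30 to 2.50, edgeR adjusted p = 0.766), and the ranges of the groups overlapped between control 3 and trauma 1. Adding trauma to the ligature gave 0.71 ± 0.66 (-0.68 to 2.09, edgeR adjusted p = 1). The interaction was -0.40 ± 0.92 (edgeR adjusted p = 0.9999). With 13 libraries these were 0.33 ± 0.35 (edgeR adjusted p = 1) and -0.77 ± 0.45 (edgeR adjusted p = 0.837). In the GENCODE M21 annotation S100a4 shares 302 exon bases with the predicted gene Gm42674 on the same strand, and reads from these bases cannot be told apart. In RefSeq (GRCm38.p6) no other gene model overlaps S100a4.

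The annexin partners S100a10 and S100a11 differed in pattern. S100a10, which binds annexin A2 and brings plasminogen activation to the cell surface, stood at 230, 287, 390 and 281 CPM in controls 1 to 4. In ligature 1 to 4 it stood at 564, 2116, 521 and 412 CPM, in trauma 1 to 4 at 283, 595, 757 and 622 CPM, and in ligature plus trauma 1 to 4 at 591, 1670, 1778 and 703 CPM. Every library with a ligature lay above every control, while trauma 1 lay among the controls. S100a10 rose with both treatments by 2.00 ± 0.51 (edgeR adjusted p = 0.0215), and its difference with ligature alone was 1.60 ± 0.51 (edgeR adjusted p = 0.053). With 13 libraries these were 1.12 ± 0.31 (edgeR adjusted p = 0.073) and 0.73 ± 0.28 (edgeR adjusted p = 0.137). The call with both treatments was also lost without control 1, 2 or 4 (edgeR adjusted p = 0.0646, 0.0579 and 0.0542) and without ligature plus trauma 2 or 3 (0.0714 and 0.0797). With ligature alone it passed without ligature 3 (edgeR adjusted p = 0.0464) or ligature 4 (0.0371).

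S100a11, which binds annexin A1, stood at 692, 601, 502 and 287 CPM in controls 1 to 4 and at 772, 2211, 544 and 605 CPM in ligature 1 to 4. It stood at 600, 1295, 2344 and 1130 CPM in trauma 1 to 4 and at 820, 1266, 1428 and 528 CPM in ligature plus trauma 1 to 4. All groups overlapped, with trauma 3 highest of all. No comparison passed: the log2 differences from control were 0.99 ± 0.49 with ligature, 1.37 ± 0.49 with trauma and 0.96 ± 0.49 with both (edgeR adjusted p = 0.205, 0.664 and 0.195). With 13 libraries they were 0.28 ± 0.39 with ligature and 0.37 ± 0.44 with both (edgeR adjusted p = 0.743 and 0.72).

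S100a6 (calcyclin) and S100a13, a partner in the export of fibroblast growth factor 1 and interleukin 1 alpha, passed in no comparison with control in all 16 libraries. S100a6 stood at 246, 202, 266 and 146 CPM in controls 1 to 4 and at 422, 1533, 254 and 276 CPM in ligature 1 to 4. It stood at 292, 446, 789 and 565 CPM in trauma 1 to 4 and at 398, 938, 1237 and 300.2 CPM in ligature plus trauma 1 to 4. Both groups with trauma lay wholly above the controls, and ligature 3 lay among them. The log2 differences from control were 1.53 ± 0.56 with ligature, 1.28 ± 0.56 with trauma and 1.74 ± 0.57 with both (edgeR adjusted p = 0.0919, 0.702 and 0.0547). The last passed without ligature 2 (edgeR adjusted p = 0.0122) or ligature plus trauma 4 (0.0348), and with 13 libraries it was 0.69 ± 0.35 (edgeR adjusted p = 0.315). With ligature the value was 0.54 ± 0.31 in 13 libraries (edgeR adjusted p = 0.322). With each library's trend with transcript length removed, S100a6 passed with both treatments at 1.09 ± 0.36 (edgeR adjusted p = 0.0499) and S100a13 at 1.03 ± 0.33 (edgeR adjusted p = 0.044).

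S100a13 stood between 37.8 and 67.5 CPM in control and between 52.1 and 74.0 CPM in trauma. In ligature 1 to 4 it stood at 65.7, 252, 48.8 and 51.7 CPM, and in ligature plus trauma 1 to 4 at 66.9, 194, 244 and 62.1 CPM. Outside the 3 short-transcript libraries, no library of S100a13 exceeded 74.0 CPM. Its difference from control with both treatments was 1.58 ± 0.53 (edgeR adjusted p = 0.0596) and 0.44 ± 0.24 with 13 libraries (edgeR adjusted p = 0.355). It passed without ligature 2 (edgeR adjusted p = 0.0118), ligature plus trauma 1 (0.0447) or ligature plus trauma 4 (0.0363). Ligature alone gave 1.14 ± 0.52 (edgeR adjusted p = 0.17) and 0.21 ± 0.22 with 13 libraries (edgeR adjusted p = 0.632), and trauma alone 0.44 ± 0.52 (edgeR adjusted p = 0.858).

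S100a1, best known from heart and skeletal muscle, and S100a16, a widely expressed member, had the smallest differences from control with ligature and with both treatments. S100a1 stood at 46.4 to 85.9 CPM in control and 65.4 to 98.6 CPM in trauma. It was at 180, 172 and 177 CPM in ligature 2 and ligature plus trauma 2 and 3, against 52.2 to 70.2 CPM in the other libraries with a ligature. Its log2 differences from control were 0.45 ± 0.39, 0.29 ± 0.39 and 0.86 ± 0.40 with ligature, trauma and both (edgeR adjusted p = 0.498, 0.879 and 0.154). With 13 libraries those with ligature and with both were -0.12 ± 0.22 and 0.05 ± 0.25 (edgeR adjusted p = 0.815 and 0.952). Summed skeletal muscle markers, 10 genes, were 5.80 to 200.1 CPM in control, 7.80 to 1070 under a ligature, 5.06 to 9.29 under trauma and 13.1 to 132 under both, highest in ligature 2. Their part in the S100a1 level was not tested. The gene models of S100a1 and S100a13, introns included, share 98 bases in RefSeq (GRCm38.p6), while the GENCODE M21 annotation shows no overlap of these genes. No source used here gives a strand setting, so reads from any shared bases cannot be told apart.

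S100a16 stood at 303, 272, 194 and 130 CPM in controls 1 to 4 and at 214, 527, 171 and 153 CPM in ligature 1 to 4. It stood at 333, 303, 712 and 259 CPM in trauma 1 to 4 and at 216, 299, 351 and 169 CPM in ligature plus trauma 1 to 4. Trauma 3 was highest and control 4 lowest. Summed epithelium markers were also highest in trauma 3 (33690 CPM). In controls 1 to 4 they were 12970, 13910, 3609 and 1566 CPM. Ligature 2, a short-transcript library and next after trauma 3 for S100a16, had 2550 CPM of them. Ligature plus trauma 4 had the lowest sum of all libraries (880 CPM). The log2 differences from control were 0.24 ± 0.42, 0.84 ± 0.42 and 0.20 ± 0.42 with ligature, trauma and both (edgeR adjusted p = 0.759, 0.74 and 0.783). With 13 libraries the differences with ligature and with both were -0.35 and -0.23, below 0. The part of epithelium in the S100a16 level was not tested.

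**Figure D3:**
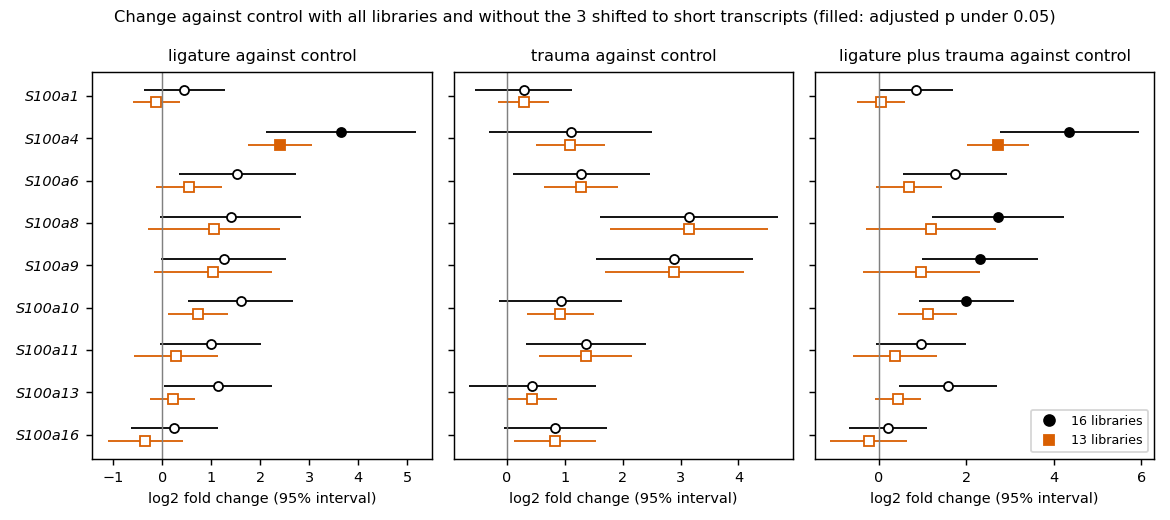
Log2 fold change against control (x axis, with 95% intervals) of each S100 gene for ligature, trauma and both, with 16 libraries (circles) and 13 libraries (squares). Filled symbols have an edgeR adjusted p under 0.05. S100a4 stays filled with ligature and with both treatments at 13 libraries (2.40 and 2.73), while S100a8, S100a9 and S100a10 lose their fill.

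Counted over the 9 genes, 1 rose with ligature (S100a4), where 10.7% of all genes tested passed and 5.88% were higher. With both treatments 4 rose (S100a4, S100a8, S100a9 and S100a10), where 12.5% passed and 6.83% were higher. With 13 libraries the latter count was 1 of 9, where 3.26% of all genes passed, and that with ligature 1 of 9, where 7.99% passed. With trauma alone 0 of 9 passed by edgeR, 4 had an unadjusted p under 0.05 and DESeq2 called 2. Of all genes 0.00477% passed by edgeR and 0.546% by DESeq2 in that comparison. In the edgeR fit of 13 libraries, with the same control and trauma libraries, 0 of 9 passed and 8 had an unadjusted p under 0.05. There 0.00438% of all genes passed. Against trauma, ligature plus trauma was higher for 1 of 9 (S100a4), where 5.48% passed and 2.21% were higher. Against ligature, 0 of 9 passed by edgeR and by DESeq2 and 0 had an unadjusted p under 0.05, where 0% of all genes passed by edgeR. The interaction passed for 0 of 9 by edgeR and by DESeq2, with 1 unadjusted p under 0.05 (S100a9), and 0% of all genes passed by edgeR.

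With all 16 libraries the 9 log2 differences from control were above 0 in each treated group. Their median was 1.25 with ligature, 1.10 with trauma and 1.74 with both, beside -0.05, 0.01 and -0.08 over all genes tested. With 13 libraries 7 of 9 were above 0 with ligature and 8 of 9 with both, with medians of 0.54 and 0.69 beside -0.09 and -0.08 over all genes. For trauma 9 of 9 were above 0 in that fit, with a median of 1.10 beside 0.01 over all genes. These comparisons share the control libraries. Groups lay wholly above control for 2 of 9 genes with ligature (9.97% of all genes), 1 of 9 with trauma (3.65%) and 3 of 9 with both (10.8%). Where ligature plus trauma was set against trauma, 1 of 9 lay wholly above (5.74%).

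Per kilobase of transcript, the scale on which genes can be set beside each other, S100a11 had the highest control level at 1019 ± 341 CPM per kb (SD, n = 4), followed by S100a10 at 511 ± 115. S100a6, S100a8 and S100a9 came next at 360 ± 89.4, 343 ± 250 and 340 ± 204 CPM per kb, and these 3 did not differ beyond their spread. S100a16 had 249 ± 86.6, S100a1 108 ± 29.4, S100a13 66.2 ± 19.2 and S100a4 27.1 ± 11.8 CPM per kb. In trauma the order was led by S100a8 at 3029 ± 2009, S100a11 at 2627 ± 1430 and S100a9 at 2529 ± 1455 CPM per kb, which overlapped. With ligature plus trauma S100a4 reached 554 ± 433 CPM per kb, still below S100a10 at 2041 ± 1075. Without the short-transcript libraries these were 180 ± 23.4 and 1114 ± 137 CPM per kb (SD, n = 2).

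Receptors and partners were looked at as lists. Of 11 receptors and co-receptors named for S100A8 and S100A9, 3 rose with ligature, 4 with both treatments and 0 with trauma by edgeR. The shares of all genes tested that were higher were 5.88%, 6.83% and 0.00477%. For trauma 4 had an unadjusted p under 0.05 and DESeq2 called 1 (0.546% of all genes). Mcam rose from 16.4 ± 1.36 CPM in control to 86.5 ± 7.69 in ligature, by 2.39 ± 0.18 on the log2 scale (edgeR adjusted p = 4.20e-06). Emb, which encodes embigin, rose by 1.94 ± 0.23 (edgeR adjusted p = 0.000206) and Cd14, the TLR4 co-receptor, by 2.50 ± 0.42 (edgeR adjusted p = 0.00178). Ly96, which encodes the MD-2 subunit of the TLR4 complex, rose with both treatments by 1.32 ± 0.38 (edgeR adjusted p = 0.0347). Tlr4 itself differed by 0.22 ± 0.29 with ligature (edgeR adjusted p = 0.677) and Ager, the receptor RAGE, by 0.44 ± 0.68 (edgeR adjusted p = 0.729). With 13 libraries 3 rose in each comparison, Ly96 no longer among them (0.79, edgeR adjusted p = 0.25). In those libraries 7.99% of all genes passed with ligature and 3.26% with both.

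Of 14 intracellular partners, 2 rose with ligature and 3 with both treatments, where 5.88% and 6.83% of all genes tested were higher. With trauma 0 rose by edgeR or DESeq2, where 4 had an unadjusted p under 0.05. Cyba, a membrane subunit of NADPH oxidase, rose by 1.06 ± 0.31 with ligature (edgeR adjusted p = 0.0369). Cacybp, the calcyclin-binding protein, rose by 0.71 ± 0.22 (edgeR adjusted p = 0.0479). Anxa2 rose with both treatments by 0.96 ± 0.29 (edgeR adjusted p = 0.0407) and differed by 0.92 ± 0.29 with ligature (edgeR adjusted p = 0.0514). Anxa1, partner of S100a11, differed by 0.03 ± 0.38 with ligature (edgeR adjusted p = 0.972). With 13 libraries Cyba alone of the partners rose with ligature, by 0.68 ± 0.16 (edgeR adjusted p = 0.0237). With both treatments 0 partners passed by edgeR in those libraries, where 4 had an unadjusted p under 0.05, and Anxa2 differed by 0.86 ± 0.25 (edgeR adjusted p = 0.0797).

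Of 8 transcription factors of myeloid genes, Spi1 and Cebpd rose with ligature (5.88% of all genes were higher) and with both treatments (6.83%). With trauma 0 passed by edgeR, 1 had an unadjusted p under 0.05 and DESeq2 called 1 (0.546% of all genes). Spi1, which encodes PU.1, went from 13.9 ± 3.04 CPM in control to 82.9 ± 12.8 in ligature and was 18.5 ± 6.64 in trauma. Cebpd rose by 1.92 ± 0.52 with ligature (edgeR adjusted p = 0.0275), and its mean with trauma was 143 ± 123 CPM against 37.6 ± 9.00 in control (1.93 ± 0.52 on the log2 scale, edgeR adjusted p = 0.499). With 13 libraries Spi1 passed and Cebpd did not (edgeR adjusted p = 0.11 with ligature and 0.066 with both).

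Of 8 further S100 genes in the count table, 5 were tested. S100a3, near the floor in control at 0.373 ± 0.165 CPM, rose by 2.72 ± 0.67 with ligature (edgeR adjusted p = 0.0171) and by 3.03 ± 0.67 with both (edgeR adjusted p = 0.0108). With 13 libraries it was 1.70 (edgeR adjusted p = 0.061) and 3.39 (edgeR adjusted p = 0.00878). S100b, a Schwann cell gene, fell by 1.50 with ligature (edgeR adjusted p = 0.012), from 10.98 ± 4.41 to 3.89 ± 1.46 CPM, and by 1.71 with 13 libraries (edgeR adjusted p = 0.0137). The epithelial genes S100a14 and S100a7a were lower with both treatments than with trauma (edgeR), S100a14 at 41.9 ± 10.8 against 177 ± 133 CPM. With 13 libraries neither passed (edgeR adjusted p = 0.171 for S100a14 and 0.189 for S100a7a). The log2 differences were then -2.20 and -1.86, beside -2.08 and -2.06 with all 16 libraries. The fifth, S100a5, passed in no comparison, and S100a2, S100g and S100z reached at most 20, 20 and 3 counts in a library.

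The fused-type S100 genes, which encode epithelial proteins with an S100 domain at one end, were looked at beside them. Of 7 listed 5 were tested. Crnn, Hrnr and Rptn fell with ligature (10.7% of all genes passed), and these with Tchh fell with both treatments (12.5%, edgeR). Tchh with ligature gave -1.32 ± 0.45 (edgeR adjusted p = 0.0728). With 13 libraries 3 fell with ligature, and with both 0 fell by edgeR, where 4 had an unadjusted p under 0.05. Summed epithelium markers, given above, were lower in the same groups, and their part in these differences was not tested. Flg, which encodes filaggrin, was at 0 in the groups with a ligature and did not pass.

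The genes whose levels were most like each S100 gene were ranked by Pearson r of log2 CPM after the group means were taken out, over 16 libraries, among 10945 genes. These libraries share their treatment groups and the length shift, so r is a description. S100a8 was most like S100a9 (0.978), then Lcn2 (0.904) and Slc39a1 (0.893), and S100a9 was most like S100a8, Lcn2 (0.92) and Saa1 (0.897). Lcn2 encodes lipocalin 2, an iron-withholding protein of neutrophils and epithelium. With 13 libraries S100a8 and S100a9 stayed at 0.969, and Tpm4 came first for S100a8 at 0.98.

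S100a4 was most like Tmsb4x, which encodes the actin-binding thymosin beta 4 (0.99, and 0.99 with 13 libraries), then Ndufb11 and Tmem256 (0.989 each). S100a10 was most like Eef1e1 (0.979), Mrpl46 (0.978) and Snrpd1 (0.974), and S100a11 like Clic1 (0.982), Ormdl2 (0.971) and Lgals3 (0.967). S100a6 was most like Hacd2 (0.98), Bud23 (0.976) and Timm22 (0.975), and S100a13 like Polr2i (0.993), Atp6v1f and Med28 (0.988 each). S100a1 was most like Pnkd (0.976), Aptx and Bex3 (0.941 each), and S100a16 like Rnh1 (0.974), Fam213b (0.954) and Htatip2 (0.947). With 13 libraries Gsta4 came first for S100a16 (0.971) and Dnaaf2 for S100a13 (0.982). For the 10 genes most like each member, the median transcript length ran from 660 bases (S100a13) to 1466 bases (S100a6), beside 2724.5 over the genes ranked. Single genes among them were longer, up to 5861 bases for S100a11, and Hacd2, first for S100a6, had 3598.

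Between the members themselves, 36 pairs had r from 0.243 to 0.978 over 16 libraries, with a median of 0.71 and 0 below 0. With 13 libraries r ran from -0.663 to 0.969, with a median of 0.33 and 5 pairs below 0. S100a8 and S100a9 stayed the closest pair, S100a6 and S100a11 had 0.89, S100a4 and S100a10 had 0.81, and S100a1 went against S100a8 and S100a9 at -0.66 each.

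**Figure D4:**
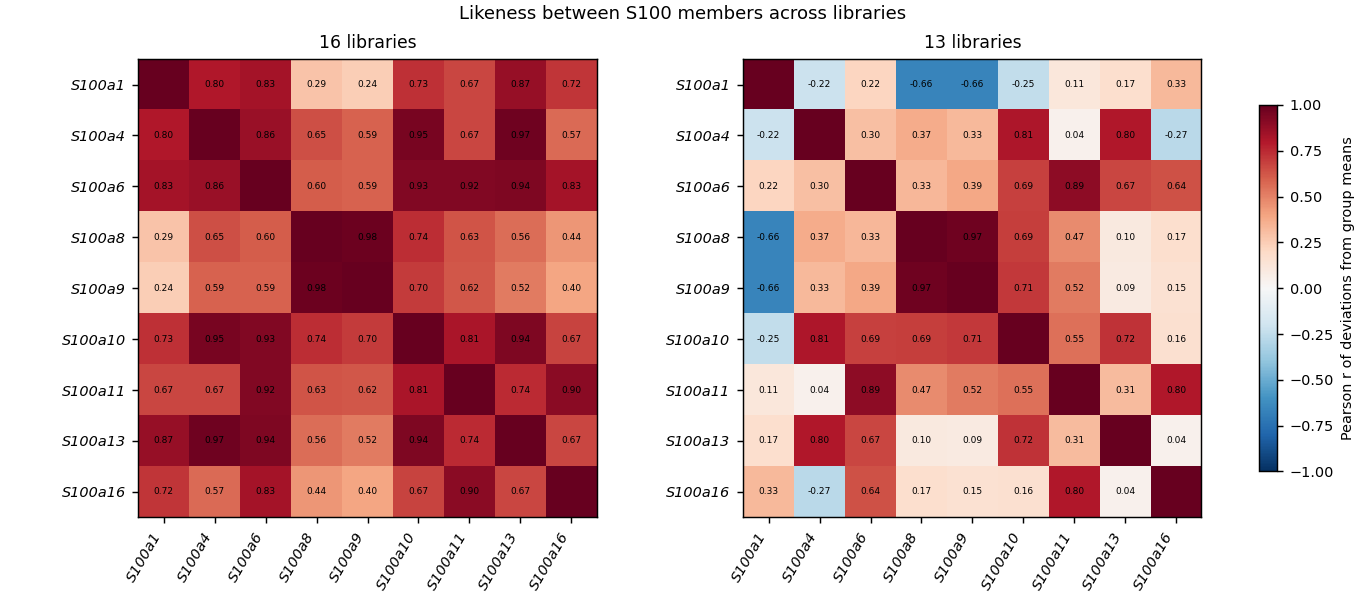
Pearson r between the 9 S100 genes, from log2 CPM with group means taken out, over 16 libraries (left) and 13 libraries (right), on a colour scale from -1 to 1. All 36 pairs are above 0 at left, whereas at right the median is 0.33 and the pair of S100a8 and S100a9 keeps the highest value, 0.969.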

How the data were processed

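Poly(A)-enriched RNA of periodontal ligament was sequenced in 16 libraries. The authors deposited raw gene counts, as whole numbers. Tools listed in the submitters' processing notes, with neither role nor order, are HISAT2 2.2.1, StringTie 2.1.7, Trimmomatic 0.39, FastQC 0.11.9 and DESeq2 1.32.0, and the build is GRCm39. The counter, its annotation and its strand setting: not given in the sources used here. GENCODE M21 (GRCm38) gave symbols for 52083 of 55359 genes, those without one holding 0.205% of the counts, and transcript lengths for 99.66% of tested genes. No 2 libraries correlated above 0.948, so each counts once.

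Counts were fitted with edgeR 4.0.16 in R 4.3.3 (quasi-likelihood test, trimmed-mean scaling, expression filter with minimum count 10, 4 groups in 1 fit, 12 residual degrees of freedom), and 20953 genes were tested with Benjamini-Hochberg adjustment. The code was tested on simulated data. CPM used the scaled totals, and log2 CPM a prior count of 2. At these totals the spread between libraries, not counting error, limits the precision.

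The members and lists were chosen with earlier results of these data known, so no list was tested. A gene of the partner list is not reported here and was left out of its counts. The rule for names took all 9 members, the other S100 genes tested, up to 4 passing genes of lowest p of the receptor, partner and transcription factor lists with Anxa2, Anxa1, Tlr4 and Ager, the 3 genes most like each member (mean log2 CPM of at least 2), and the 2 most abundant genes of each marker list. Retnlg, Cxcr2, Csf3r, Ly6g, Camp, Ngp, Padi4 and Flg were named after their values were seen. Marker lists whose genes were not counted above passed as follows with ligature, where 10.7% of all genes tested passed. All 6 osteoclast genes rose, 3 of 5 endothelial genes rose, and 3 of 8 ligament fibroblast, 2 of 6 osteoblast, 3 of 6 Schwann cell and 2 of 6 cartilage genes fell. Of 10 macrophage genes 2 rose and 2 fell, and 0 of 5 granulocyte precursor and 0 of 10 muscle genes passed by edgeR (2 of each at an unadjusted p under 0.05, and 1 of each by DESeq2).

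Alternatives were DESeq2 1.42.0, its size factors in edgeR, no filter, the replicate number as a block, 13 libraries, removal of each library's trend with transcript length (a spline, 5 degrees of freedom) and each library left out in turn. The likeness and list counts with 13 libraries were added after seeing the data.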

Additional observations from a re-analysis of the deposited data

Results flagged for a closer look

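Within each group of 4, a library was marked where its log2 CPM lay further from the rest than Dixon's 95% critical value allows, which chance exceeds in about 5% of groups. Of 36 groups of values tested, 2 were marked. S100a4 in ligature 2 was at 461 CPM, above the other ligature libraries at 63.2 to 77.7 CPM. S100a9 in trauma 1 was at 246 CPM, below the other trauma libraries at 1455 to 2018 CPM. Ligature 2 is one of the 3 libraries shifted to short transcripts. Trauma 1 had the lowest summed neutrophil markers of its group (289 CPM), but by the mean log2 CPM of the same genes it lay at 3.05, above trauma 2 and 3 at 2.85 and 2.93. The part of either in these values was not tested.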

How the results depend on the processing

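The count of S100 genes passing with ligature, 1 of 9 beside 10.7% of all genes, was 3 with DESeq2 (18% of all genes), 2 with the replicate block (9.94%) and 2 with the length trend removed (16.3%). S100a10 was added in all of these (replicate block 1.39, edgeR adjusted p = 0.0436) and S100a6 with DESeq2. With trauma the count went from 0 to 2 with DESeq2 (0.546%), and with both treatments from 4 to 1 with 13 libraries (3.26%). Leaving out 1 library gave 1 to 2 with ligature (6.58 to 9.83% of all genes) and 1 to 6 with both against control (4.71 to 19.9%). It gave 0 to 0 with trauma (0 to 0.0139%) and 1 to 1 for both against trauma (2.6 to 7.02%). For both against ligature (0%) and for the interaction (0 to 0.00922%) it gave 0 to 0. With the length trend removed 5 passed with both treatments (16.5% of all genes): S100a6 and S100a13 were added and S100a9 was lost (1.56, edgeR adjusted p = 0.057). The median of all genes moved from -0.05 to 0.18 with ligature, from -0.08 to 0.19 with both and from -0.02 to 0.22 for both against trauma. The labels do not say whether replicate numbers pair libraries. The 24 same-numbered pairs correlated from -0.157 to 0.215, and 4 of 16 libraries correlated best with their own number. Such values show no pairing and cannot exclude one. The block changed no other member call.

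Signs changed in values that did not pass. With 13 libraries they were -0.12 (S100a1) and -0.35 (S100a16) for ligature, -0.23 (S100a16) for both, -0.069 (S100a9), 0.087 (S100a11) and 0.11 (S100a16) for both against ligature, -0.24 (S100a1) and -0.59 (S100a6) for both against trauma, and -0.12 (S100a1) and -0.20 (S100a13) for the interaction. With the length trend removed S100a16 was -0.057 with ligature and -0.18 with both, and S100a1 -0.14 with trauma. The replicate block gave 0.0071 (S100a11) and 0.0088 (S100a16) for both against ligature and -0.032 (S100a13) for the interaction, where DESeq2 gave -0.035 and its size factors -0.035. Leaving out 1 library gave -0.13 to 0.64 for S100a1 and -0.35 to 0.43 for S100a16 with ligature, and -0.0019 to 0.38 for S100a16 with both. For both against ligature it gave -0.19 to 1.19 (S100a6), -0.25 to 0.67 (S100a11) and -0.23 to 0.54 (S100a16), and for both against trauma -0.65 to 0.0024 (S100a11). For the interaction it gave -0.10 to 0.70 (S100a1), -0.77 to 0.86 (S100a4), -0.79 to 0.35 (S100a10) and -0.38 to 0.94 (S100a13). Apart from what the design of each alternative fixes, the cause was not tested.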
